A study of Mus musculus with 6 samples.

Results

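The genes described here are those of FGF receptors and ligands, read in 3 WT and 3 Rnf20 knockout cultures on day 3 of OSKM reprogramming, in which retroviral OCT4, SOX2, KLF4 and C-MYC turn fibroblasts towards pluripotency. They were taken by gene symbol from the deposited table of read counts: 10 genes were listed, 9 of them were read among the 16982 genes of the table, and Fgfr2 was not analysed here. The cells were mouse embryonic fibroblasts (MEF) on a C57BL/6 background. The WT group is labelled wild type (n = 3) and the knockout group Rnf20-/- (n = 3). The knockout came from floxed Rnf20 alleles and a ubiquitous Cre that 4-OH tamoxifen switches on, whereas the labels give every culture as untreated. Whether the WT cultures carried the Cre or received the drug is not stated in the sources used here. The study's methods replate infected MEF on a layer of mitomycin-C-treated feeder MEF, and whether such feeders were part of these cultures is not stated either. Nothing in the labels says that the 3 cultures of a genotype came from separate embryos, so the p-values measure the spread between these cultures only.

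Fibroblast growth factors (FGF) are secreted proteins that bind heparan sulphate on the cell surface and, with it, pair FGF receptors (FGFR), which are tyrosine kinases. The activated receptor signals through the docking protein FRS2, RAS and the MAP kinases ERK1 and ERK2, and the pathway induces its own inhibitors of the Sprouty and DUSP families. Ligands of the FGF7 group are made by mesenchymal cells and act mainly on epithelial splice forms of receptors, while FGF2 and FGF18 act also on fibroblasts and skeletal cells. RNF20 is the E3 ligase that, with RNF40, ubiquitinates histone H2B.

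Each library held 20545442 to 21746898 counts, and 3 counts, taken as the floor, lay at 0.142 to 0.143 CPM, the counts scaled to a common TMM-normalized library size. Where 3 values of a genotype are given, they stand in the order of replicates 1 to 3. The targeted gene separated the genotypes, with 107, 107 and 106 CPM of Rnf20 in the WT libraries and 18.7, 18.5 and 16.4 in the knockout libraries. Knockout replicate 3 stood apart from the other knockout libraries: the chi-square statistic of the counts per gene was 92.4 and 101 against them and 6.04 to 8.92 between all other pairs of one genotype. Transcripts of the Y-linked gene Ddx3y were at 0 counts in knockout replicates 1 and 3 and at 94.4 to 128 CPM in the other 4 libraries. Their presence thus differed within the knockout group and cannot be fully told apart from genotype. All 15 genes of a list of S-phase and G2/M genes fell in knockout cells, where 16.6% of all genes tested did. The summed CPM of these 15 genes was 1771 to 1833 in WT libraries and 770, 666 and 279 in the knockout libraries. The summed CPM of 14 fibroblast markers was 31780 to 34540 in WT libraries and 33320, 41440 and 22740 in the knockout libraries, and 2 of them fell, the surface genes Thy1 (log2 fold change -1.11, edgeR quasi-likelihood test, adjusted p = 0.00251) and Pdgfra (-1.22, adjusted p = 0.0185). Without knockout replicate 3, 2 of the fibroblast markers rose and 3 fell, where 23.9% and 24.2% of all genes did. In RNA from whole cultures, fewer cells of a type and less RNA per cell cannot be told apart.

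Of the 9 genes read, 8 passed the filter on low counts and were tested, and the ninth, Fgfr4, was at the floor. Fgf18 rose in knockout cells and was the only member to pass an adjusted p under 0.05 with all 6 libraries, in the quasi-likelihood test of edgeR, adjusted by Benjamini-Hochberg over the 13386 genes tested. None of the 8 members fell at this threshold in the quasi-likelihood test, in DESeq2 or in edgeR's exact test (0 of 8 in each), nor at an unadjusted p under 0.05 (0 of 8). Of all genes tested, 16.4% rose and 16.6% fell in the same test, 33.0% in either direction. By the study's thresholds (adjusted p under 0.01, change over 2-fold, FPKM over 1) Fgf18 was also called, as were 1.50% of all genes in the direction of a rise and 2.08% in that of a fall. The 3 knockout libraries lay wholly above the 3 WT libraries for Fgf7 and Fgf18 and wholly below for Fgfr1 and Fgfr3, against 26.6% and 28.2% of all genes and 54.8% in either direction. With knockout replicate 3 left out, 4 members passed an adjusted p under 0.05, Fgf18 and Fgf7 as higher and Fgfr3 and Fgfr1 as lower, where 23.9% and 24.2% of all genes did.

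**Figure D1:**
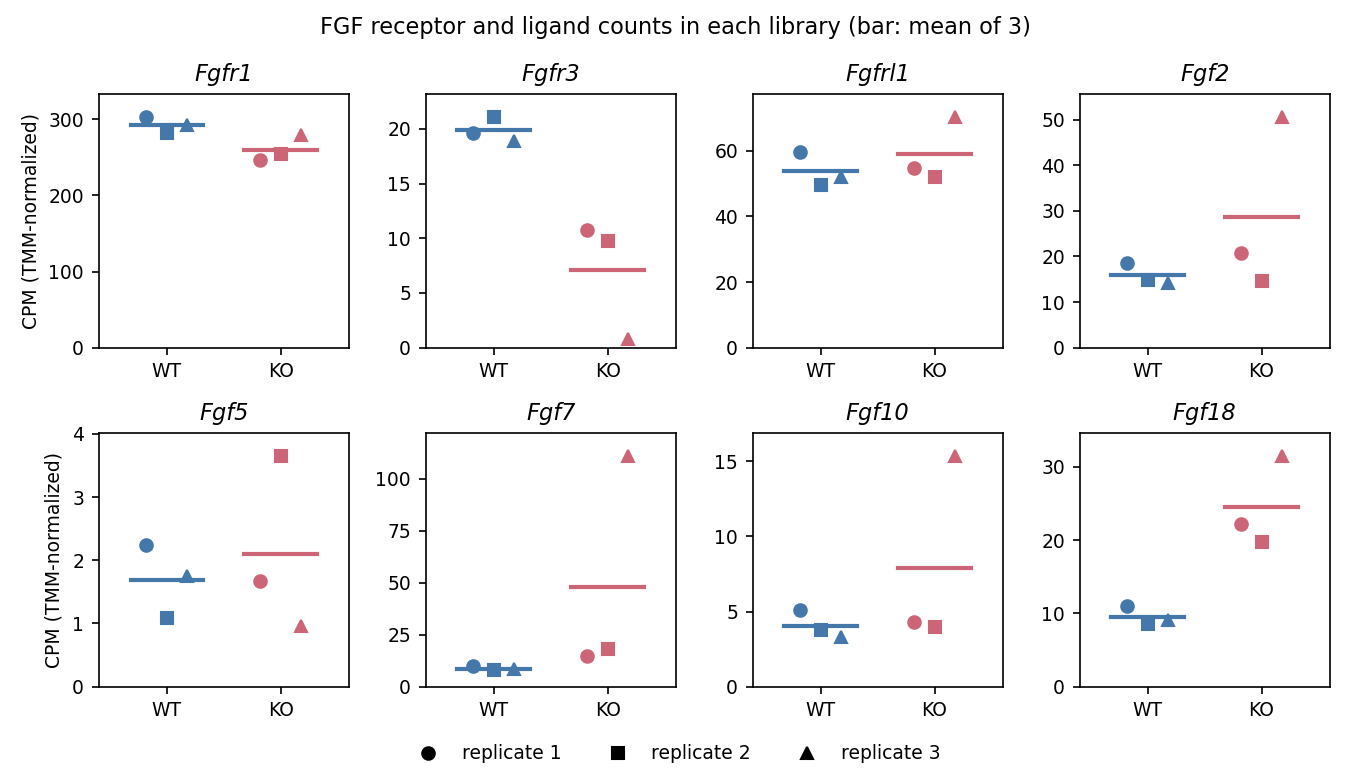
TMM-normalized CPM (linear axis from 0) of the 8 tested FGF genes in each WT (blue) and knockout (KO, red) library, with the mean of each genotype as a bar. Knockout replicate 3 (triangle) held 0.810 CPM of Fgfr3 and 111 CPM of Fgf7, while Fgf18 was between 19.7 and 31.5 CPM in the 3 knockout libraries and between 8.59 and 11.0 in the WT libraries.

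Among the receptors, Fgfr1, the main FGF receptor of mesenchymal cells, was the most abundant member in both genotypes. Fgfr1 lies on chromosome 8 of GRCm38 from 25513654 to 25575718 on the plus strand. Its level per length was 60.2, 56.0 and 58.0 CPM per kilobase in the WT libraries and 48.9, 50.5 and 55.5 in the knockout libraries. The knockout libraries all lay below the WT libraries, and knockout replicate 3 was the nearest to them. In the deposited FPKM this separation did not hold, with 70.7, 67.5 and 70.3 in the WT libraries and 57.6, 59.2 and 71.5 in the knockout libraries. The log2 fold change was -0.17 (standard error 0.0758, 95% interval -0.351 to 0.010, edgeR quasi-likelihood test, adjusted p = 0.127). Without knockout replicate 3 it was -0.22 (adjusted p = 0.00627 from the same test).

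Fgfr3, the receptor best known for restraining the growth of cartilage, had the largest spread between knockout libraries of the 8 tested members (SD of log2 CPM 2.03, n = 3). It lies on chromosome 5 from 33721674 to 33737068 on the plus strand. It held 19.6, 21.1 and 18.9 CPM in the WT libraries and 10.8, 9.73 and 0.810 CPM in the knockout libraries. Knockout replicates 1 and 2 together were at 0.516 times the WT mean, and knockout replicate 3, with 17 counts, was at 0.0407 times. The log2 fold change over all libraries was -1.48 (standard error 0.698, 95% interval -3.14 to 0.178) and did not pass the test (edgeR quasi-likelihood test, adjusted p = 0.144). Without knockout replicate 3 it was smaller, at -0.95, with a standard error of 0.105 and an adjusted p of 5.95e-05. Chondrocyte markers were also lowest in that library by their sum: of 6 listed genes 5 were tested and 0 passed (edgeR quasi-likelihood test, lowest adjusted p = 0.0723, with 0 higher and 1 lower at an unadjusted p under 0.05 and in DESeq2), and their summed CPM was 83.5 to 98.7 in WT libraries and 99.5, 136 and 33.9 in the knockout libraries. Of all genes tested, 33.0% passed in either direction. Without knockout replicate 3, 2 of the 6 chondrocyte markers rose and 2 fell, where 23.9% and 24.2% of all genes did. The part of these markers in the Fgfr3 values was not tested.

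Upstream sequence is printed here and below for the 3 members whose knockout libraries lay apart from WT and that have an entry in the promoter table of RefSeq for GRCm38.p6, Fgfr3, Fgf18 and Fgf7. Fgfr1 has no entry. The bases stand 5′ to 3′ on the strand of the gene and end before the first annotated transcript of the gene. Capitals mark the GC box bound by SP1-like factors, GGGCGG or its reverse complement. For Fgfr3 the stretch is chr5:33721474-33721673 on the plus strand.
Fgfr3: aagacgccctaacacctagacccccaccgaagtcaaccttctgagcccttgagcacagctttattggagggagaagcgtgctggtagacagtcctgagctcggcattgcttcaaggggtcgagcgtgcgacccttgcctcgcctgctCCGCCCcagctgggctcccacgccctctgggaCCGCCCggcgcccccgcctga
Of 2 RefSeq start sites of Fgfr3 this is the upstream one. The full window of 250 bases before it held 3 GC boxes, of which 2 are in the stretch printed, and had a GC content of 66.8%, against a median of 52.4% over 32851 such windows. A GC box was present in 32.7% of those windows. A locus without a known product, G630022F23Rik, is annotated on the opposite strand over 998 exonic bases of Fgfr3, and counts of the pair cannot be separated if the counting ignored strand, which the sources used here do not state.

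Fgfrl1 encodes a receptor that binds FGF but lacks the kinase, and its counts showed no separation by genotype. It lies on chromosome 5 from 108692382 to 108706924 on the plus strand. It held 59.7, 49.7 and 52.2 CPM in the WT libraries and 54.9, 52.1 and 70.4 CPM in the knockout libraries. Only knockout replicate 3 lay above every WT library. The log2 fold change was 0.14 (standard error 0.136, 95% interval -0.187 to 0.459, edgeR quasi-likelihood test, adjusted p = 0.464), and it was -0.0070 without knockout replicate 3. Fgfr4 (chromosome 13, 55152640 to 55168759, plus strand), a receptor of liver and early muscle, had 1, 2 and 1 counts in the WT libraries and 1, 0 and 2 in the knockout libraries, so every library was under the floor and no change was detectable at this depth.

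Read as shares of a common pool, Fgfr1, Fgfr3 and Fgfr4 summed to 64.8, 61.0 and 62.4 CPM per kilobase in the WT libraries and to 51.4, 52.7 and 55.7 in the knockout libraries. Fgfr3 made up 7.05, 8.05 and 7.04% of this sum in WT replicates and 4.88, 4.29 and 0.338% in knockout replicates, and Fgfr1 nearly all of the remainder. The difference of the Fgfr3 share was -4.21 percentage points (exact two-sided permutation test, p = 0.1, the smallest that 3 against 3 libraries allow, and 0.167 adjusted over 10 comparisons of sums and shares). It was -2.80 percentage points without knockout replicate 3. The counts are per gene, so the epithelial and mesenchymal splice forms that differ in ligand choice were not read. Esrp1, which encodes the splicing factor that favours the epithelial form, was at 0.142 to 0.285 CPM in WT and at 0 to 0.0955 CPM in knockout libraries, near or under the floor, and was not tested. Esrp2 had a log2 fold change of 0.76 (edgeR quasi-likelihood test, adjusted p = 0.0801), and of the 4 tested genes in a list of 5 splicing factors that act on FGFR transcripts, Mbnl1 rose (0.38, adjusted p = 0.0245) while Rbfox2 (0.0060, adjusted p = 0.948) and Ptbp1 (-0.18, adjusted p = 0.290) did not pass.

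**Figure D2:**
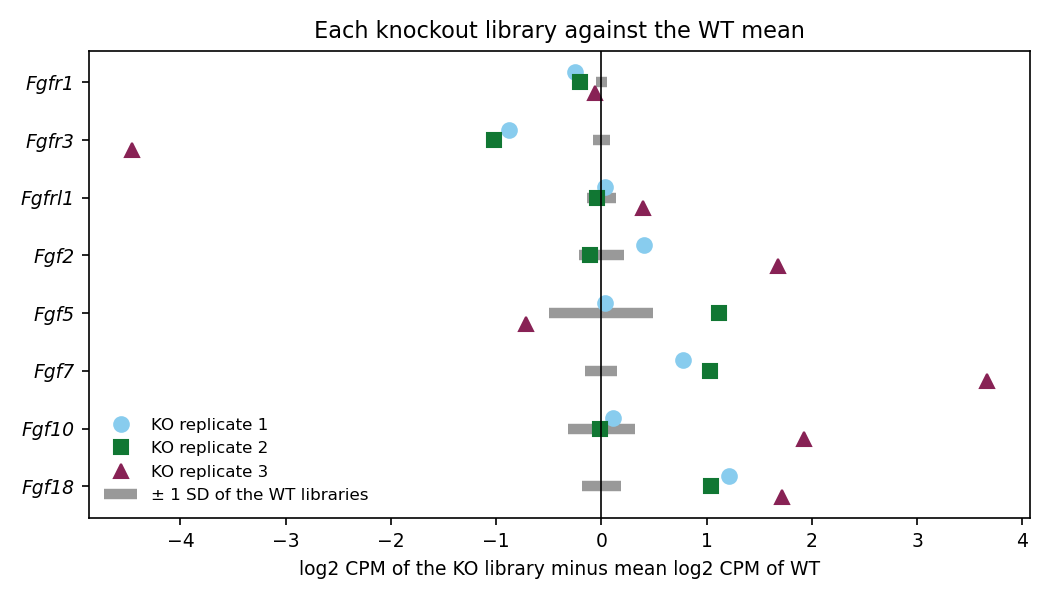
Difference of log2 CPM between each knockout (KO) library and the WT mean for the 8 tested FGF genes, with the WT spread (± 1 SD, n = 3) as a grey band around 0. Knockout replicate 3 lay at -4.46 for Fgfr3, 3.67 for Fgf7, 1.92 for Fgf10 and 1.68 for Fgf2, and all 3 knockout libraries lay between 1.04 and 1.72 for Fgf18.

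Among the ligands, Fgf18, a growth factor of bone and cartilage development, was the only one to pass the test with all libraries. It lies on chromosome 11 from 33117430 to 33147400 on the minus strand. It held 11.0, 8.59 and 9.06 CPM in the WT libraries and 22.2, 19.7 and 31.5 CPM in the knockout libraries. Every knockout library lay above every WT library, and the mean was 2.56 times that of WT. The log2 fold change was 1.36 (standard error 0.202, 95% interval 0.874 to 1.84, edgeR quasi-likelihood test, adjusted p = 0.00627). With each library left out in turn it was between 1.13 and 1.49, with adjusted p-values from 5.87e-05 to 0.0412 in the same test, under 0.01 only without knockout replicate 3. A term for Y-linked transcripts leaves only knockout replicate 2 to compare with WT, as knockout replicates 1 and 3 had 0 counts of Ddx3y. In that fit, which rests on 1 knockout library, the log2 fold change of Fgf18 was 1.04.

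The 250 bases before the start of Fgf18, chr11:33147401-33147650 on the minus strand, held 37 CpG dinucleotides, against a median of 6.
Fgf18: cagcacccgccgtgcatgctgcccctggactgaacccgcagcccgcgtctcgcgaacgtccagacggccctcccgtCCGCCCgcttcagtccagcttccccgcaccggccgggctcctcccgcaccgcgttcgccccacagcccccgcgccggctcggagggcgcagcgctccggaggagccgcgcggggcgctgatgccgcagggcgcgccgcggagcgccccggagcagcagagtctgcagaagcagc
Their GC content was 77.2%, and 97.6% of all windows had a content no higher. They held 1 GC box.

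Fgf7, also called keratinocyte growth factor, is a mesenchymal ligand for epithelial cells. Its values depended on knockout replicate 3. The gene is on chromosome 2 from 126034658 to 126091185 on the plus strand. It held 9.75, 7.93 and 8.45 CPM in the WT libraries and 14.9, 17.9 and 111 CPM in the knockout libraries. All knockout libraries lay above WT, at 1.89 times the WT mean in knockout replicates 1 and 2 together and at 12.8 times in knockout replicate 3. The log2 fold change was 2.46 (standard error 0.794, 95% interval 0.573 to 4.35) and missed the threshold in edgeR's quasi-likelihood test (adjusted p = 0.0531). It was 0.92 without knockout replicate 3 (standard error 0.131, adjusted p = 0.000310), 2.90 without knockout replicate 1 (adjusted p = 0.0308) and 2.86 without knockout replicate 2 (adjusted p = 0.0424). Without any 1 of the WT libraries the adjusted p was 0.135 to 0.158. In the fit with a term for Y-linked transcripts, which compares knockout replicate 2 alone with WT, the log2 fold change was 1.04.

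The window before Fgf7, chr2:126034408-126034657 on the plus strand, differed from the others in composition, with a GC content of 43.6% and 6 CpG.
Fgf7: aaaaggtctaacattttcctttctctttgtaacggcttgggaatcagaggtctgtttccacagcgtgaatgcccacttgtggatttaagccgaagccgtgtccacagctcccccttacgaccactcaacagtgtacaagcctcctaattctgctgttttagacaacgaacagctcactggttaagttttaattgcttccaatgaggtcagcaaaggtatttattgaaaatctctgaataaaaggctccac
It held no GC box. None of the 3 windows held TTTGCAT of the OCT4 octamer, CATTGT of SOX factors, CCACCC of KLF factors, CACGTG of MYC, TGANTCA of AP-1 or CCGGAAG of ETS factors on either strand. These were present in 4.12, 10.7, 28.1, 6.02, 6.75 and 6.91% of all windows, in the same order. That these letters are not in the windows says nothing about binding of the factors.

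Fgf10, the closest relative of Fgf7 and a ligand of limb and lung budding, was high in knockout replicate 3 alone. The gene is on chromosome 13 from 118669791 to 118792115 on the plus strand. It held 5.09, 3.80 and 3.27 CPM in the WT libraries and 4.30, 3.94 and 15.4 CPM in the knockout libraries. KO over WT gave a log2 fold change of 0.96 (standard error 0.554, 95% interval -0.360 to 2.27, edgeR quasi-likelihood test, adjusted p = 0.219), and it was 0.025 without knockout replicate 3.

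Fgf2, or basic FGF, a broad mitogen of fibroblasts, was also highest in knockout replicate 3. The gene is on chromosome 3 from 37348346 to 37410108 on the plus strand. It held 18.7, 14.8 and 14.1 CPM in the WT libraries and 20.9, 14.6 and 50.7 CPM in the knockout libraries. Knockout replicate 2 lay among the WT libraries, knockout replicate 1 just above them and knockout replicate 3 at 3.20 times their mean. KO over WT gave a log2 fold change of 0.86 (standard error 0.442, 95% interval -0.195 to 1.91, edgeR quasi-likelihood test, adjusted p = 0.175), and it was 0.16 without knockout replicate 3. Exons of Nudt6 on the opposite strand cover 640 exonic bases of Fgf2, so reads of the pair may be mixed if the counting ignored strand. Gm43439 on the same strand covers 255 exonic bases of Fgf2, which counting by strand would not separate. Nudt6 held 2.66 to 3.99 CPM in WT and 4.30, 4.04 and 5.10 CPM in the knockout libraries, less than Fgf2 in every library.

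Fgf5, a ligand known from hair follicles and from the primed state of pluripotency, was low and varied within both genotypes. The gene is on chromosome 5 from 98254184 to 98277030 on the plus strand. It had 47, 23 and 37 counts in the WT libraries and 35, 77 and 20 in the knockout libraries. The knockout libraries held both the highest and the lowest value. KO over WT gave a log2 fold change of 0.30 (standard error 0.529, 95% interval -0.955 to 1.56, edgeR quasi-likelihood test, adjusted p = 0.680), and it was -0.36 without knockout replicate 2, with the opposite sign.

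Per length, the order of the 9 genes in WT cells was Fgfr1, Fgfrl1, Fgfr3, Fgf18, Fgf7, Fgf2, Fgf10, Fgf5 and Fgfr4, with means of 58.1, 19.2, 4.62, 4.44, 2.95, 2.65, 0.880, 0.658 and 0.0191 CPM per kilobase. The ranges of the 3 WT libraries overlapped for the neighbours Fgfr3 and Fgf18, Fgf7 and Fgf2, and Fgf10 and Fgf5. By knockout means Fgf7 (mean 16.3, range 5.06 to 37.7) and Fgf18 (11.4, range 9.15 to 14.6) stood after Fgfrl1 (21.1), and Fgfr3 (1.65, range 0.188 to 2.51) stood after Fgf10 (1.71). Of the neighbours by knockout means, Fgfr1 and Fgfrl1, Fgf18 and Fgf2, and Fgf5 and Fgfr4 did not overlap in range. In knockout replicates 1 and 2 Fgf7 (5.06 and 6.07) was below Fgf18 (10.3 and 9.15), and Fgfr3 (2.51 and 2.26) was above Fgf10 (0.933 and 0.856). The 5 ligands together summed to 13.5, 10.4 and 10.8 CPM per kilobase in the WT libraries and to 20.4, 19.9 and 64.5 in the knockout libraries. The sum was higher in every knockout library (exact two-sided permutation test, p = 0.1, the smallest possible, 0.167 adjusted over the 10 comparisons). Fgf18 had the largest share of the sum in WT libraries (37.9 to 38.9%) and in knockout replicates 1 and 2 (50.4 and 45.9%). Its share was 22.7% in knockout replicate 3. Fgf7 made up 24.4 to 26.5% of the sum in WT libraries and 24.8, 30.4 and 58.4% in the knockout libraries. Fgf2 made up 21.8 to 23.8% in WT and 17.1, 12.2 and 13.1% in knockout libraries, without overlap (p = 0.1 in the same exact test, 0.167 adjusted). Fgf10 made up 6.57 to 8.17% in WT and 4.57, 4.3 and 5.18% in knockout libraries, also without overlap (p = 0.1 in the exact test, 0.167 adjusted).

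**Figure D3:**
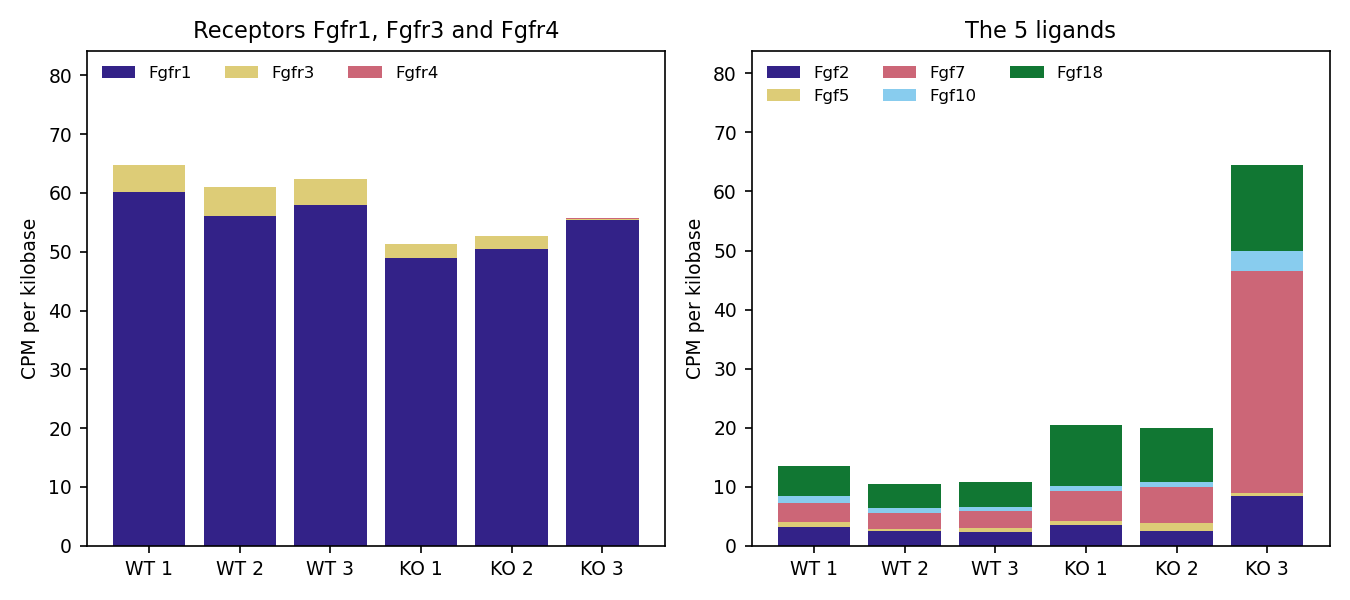
Stacked CPM per kilobase in each library (linear axes from 0) for the receptors Fgfr1, Fgfr3 and Fgfr4 (left) and for the 5 ligands (right). The ligand sum was 10.4 to 13.5 in WT, 19.9 and 20.4 in knockout (KO) replicates 2 and 1, and 64.5 in knockout replicate 3, where Fgf7 was 58.4% of it.

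The genes whose log2 CPM ran most like that of a member over the 6 libraries were taken by Pearson's r, as a description, since the libraries share genotype and library effects. For Fgf18 they were Adgrg6, an adhesion receptor (r = 0.9994, log2 fold change 1.09), Mfsd1 (r = 0.9990, 0.69) and Rnf5 (r = 0.9989, 0.23), and 1035 genes had an r over 0.95. For Fgfr3 they were Urb1 (r = 0.9999, log2 fold change -0.40), Ints10 (r = 0.9994, -0.27) and Herc4 (r = 0.9994, -0.21), with 864 genes over 0.95. Knockout replicate 3 was the lowest library for Fgfr3, and the log2 fold changes of its 3 nearest genes were far smaller than its own.

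The 15 other FGF genes read were mostly low, 8 of them were tested, and 0 rose or fell in edgeR's quasi-likelihood test. Of all genes tested, 33.0% passed in either direction. At an unadjusted p under 0.05, 1 of the 8 was higher and 0 lower, and DESeq2 gave 2 higher. The median log2 fold change of the 8 was -0.014, against -0.0003 over all genes tested. Fgf13, an intracellular FGF, came nearest, at 2.28 to 2.85 CPM in WT and 3.34, 4.61 and 10.6 in the knockout libraries (log2 fold change 1.26, adjusted p = 0.0662). Fgf21, a hormone-like FGF and the gene of the list with the highest WT level per length (1.23 CPM per kilobase), had a log2 fold change of -1.80 (adjusted p = 0.124).

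Among co-receptors and FGF-binding proteins, 6 of 9 tested genes rose and 0 fell, where 16.4% of all genes rose and 16.6% fell, with a median of 0.63 on the log2 scale. DESeq2 and an unadjusted p under 0.05 also gave 0 that fell. Flrt2, a membrane partner of FGF receptors, rose from 225 to 239 CPM in WT libraries to 467, 456 and 623 in the knockout libraries (log2 fold change 1.14, standard error 0.131, edgeR quasi-likelihood test, adjusted p = 0.00357). The carriers Fgfbp1 and Fgfbp3, which release FGF from the matrix, rose by 1.34 (adjusted p = 0.0223) and 1.13 (adjusted p = 0.0213) on the log2 scale. L1cam, a neural adhesion molecule, rose by 1.11 (adjusted p = 0.0175). These 3 genes were low, with 32 to 54 counts of Fgfbp1, 26 to 35 of Fgfbp3 and 42 to 58 of L1cam in the WT libraries. Ncam1, at 24.6 CPM per kilobase in WT, had a log2 fold change of 0.19 (adjusted p = 0.377).

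The heparan sulphate proteoglycans that hold FGF at the cell surface moved both ways. Of 11 tested core protein genes 3 rose and 2 fell, with a median log2 fold change of 0.11, where 33.0% of all genes passed in either direction. Without knockout replicate 3, 5 rose and 3 fell, where 23.9% and 24.2% of all genes did. Hspg2 (log2 fold change 0.81, adjusted p = 4.17e-06) and Gpc3 (-0.64, adjusted p = 0.00200) then passed, the latter named after its values were seen. The glypican gene Gpc4 rose from 289 to 310 CPM in WT libraries to 651, 658 and 689 in the knockout libraries (log2 fold change 1.16, standard error 0.0692, edgeR quasi-likelihood test, adjusted p = 0.00144). The syndecan genes Sdc2 and Sdc3 rose by 0.98 (adjusted p = 0.00177) and 0.59 (adjusted p = 0.0130), and the glypican gene Gpc2 had a log2 fold change of -0.60 (adjusted p = 0.0226) and the agrin gene Agrn, named after its values were seen, of -0.40 (adjusted p = 0.0194). Hspg2, the perlecan gene and the most abundant of the list per length, had 1554 to 1641 CPM in WT libraries and 2722, 2853 and 1622 in the knockout libraries (adjusted p = 0.0680), and the syndecan gene Sdc1, next in level, had a log2 fold change of 0.11 (adjusted p = 0.352). Of 18 tested genes of heparan sulphate synthesis and trimming, 4 rose and 1 fell, with a median of 0.021, against 16.4% and 16.6% of all genes, and without knockout replicate 3 it was 6 and 4, against 23.9% and 24.2%. Hs6st2, a sulphotransferase, and Sulf1, an extracellular sulphatase that removes sulphate at the same position, rose by 0.75 (adjusted p = 0.00670) and 0.71 (adjusted p = 0.00559), and Extl1 and Extl3 by 1.16 (adjusted p = 0.0479) and 0.67 (adjusted p = 0.0231). Extl1 was low, with 12 to 18 counts in the WT libraries. The sulphotransferase gene Ndst2, named after its values were seen, fell by 0.42 (adjusted p = 0.0175). The most abundant genes of the list, Sulf2 and Hs6st1, had log2 fold changes of -0.20 (adjusted p = 0.231) and -0.48 (adjusted p = 0.0967).

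In the intracellular relay, 7 of 21 tested genes rose and 3 fell, where 16.4% of all genes rose and 16.6% fell. The median log2 fold change was 0.091. Without knockout replicate 3 it was -0.004, and 9 genes rose and 4 fell, where 23.9% and 24.2% of all genes did. The docking gene Frs2 rose from 89.2 to 101 CPM in WT libraries to 143, 142 and 157 in the knockout libraries (log2 fold change 0.61, standard error 0.0803, edgeR quasi-likelihood test, adjusted p = 0.00464). The RAS gene Hras rose by 0.72 (adjusted p = 0.0154), Map2k1, which encodes the kinase MEK1, by 0.67 (adjusted p = 0.0177), and the phosphatase gene Ptpn11 by 0.51 (adjusted p = 0.00840). Mapk3, which encodes ERK1 and had the highest WT level per length of the list, had a log2 fold change of -0.34 (adjusted p = 0.0923), and the adaptor gene Shc1, next in level, of 0.09 (adjusted p = 0.607). Among the genes that fell were Nras (by 0.37, adjusted p = 0.0143) and Gab1 (by 0.32, adjusted p = 0.0398), named after their values were seen.

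Genes that FGF and MAP kinase signalling induces, listed as targets and feedback inhibitors, rose in 9 of 18 cases and fell in 2, with a median of 0.43 on the log2 scale, where 16.4% of all genes rose and 16.6% fell. Ccnd1, the cyclin D1 gene, rose from 375 to 433 CPM in WT libraries to 1093, 923 and 1020 in the knockout libraries (log2 fold change 1.36, edgeR quasi-likelihood test, adjusted p = 0.00178). Fosl1, an AP-1 subunit, Phlda1 and the ERK phosphatase gene Dusp4 rose by 1.50 (adjusted p = 0.0138), 1.48 (adjusted p = 0.00954) and 1.31 (adjusted p = 0.0226). Dusp6, the ERK phosphatase most closely tied to FGF signalling, held 23.7 to 27.2 CPM in WT and 48.3, 45.7 and 39.5 in knockout libraries (log2 fold change 0.79, adjusted p = 0.00486, chosen after its values were seen). Egr1, an immediate early gene, went the other way, at 361 to 422 CPM in WT and 288, 215 and 146 in knockout libraries, where it fell by 0.86 on the log2 scale (adjusted p = 0.0311). Il17rd, the gene of the FGF inhibitor SEF and likewise named after its values were seen, fell by 0.63 (adjusted p = 0.0346). Of the feedback inhibitors, Spry1 (log2 fold change 0.45, edgeR quasi-likelihood test, adjusted p = 0.0229), Spry4 (0.36, adjusted p = 0.0407) and Spred1 (0.31, adjusted p = 0.0274) rose. So did the phosphatase gene Dusp5 (0.81, adjusted p = 0.00614), named like them with its values known. Other genes tied closely to FGF signalling did not pass, and are likewise named with their values known. They were the ETS factor genes Etv1 (log2 fold change -0.29, adjusted p = 0.142), Etv4 (0.41, adjusted p = 0.212) and Etv5 (-0.21, adjusted p = 0.0742). The inhibitor genes Spry2 (-0.13, adjusted p = 0.509), Spry3 (0.76, adjusted p = 0.0747), Spred2 (-0.05, adjusted p = 0.651) and Spred3 (0.51, adjusted p = 0.106) did not pass either. Without knockout replicate 3, 10 of the 18 rose and 4 fell, with a median of 0.33, where 23.9% and 24.2% of all genes did. Many of these genes answer to other growth factors as well, and the part of FGF signalling in their values was not tested.

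**Figure D4:**
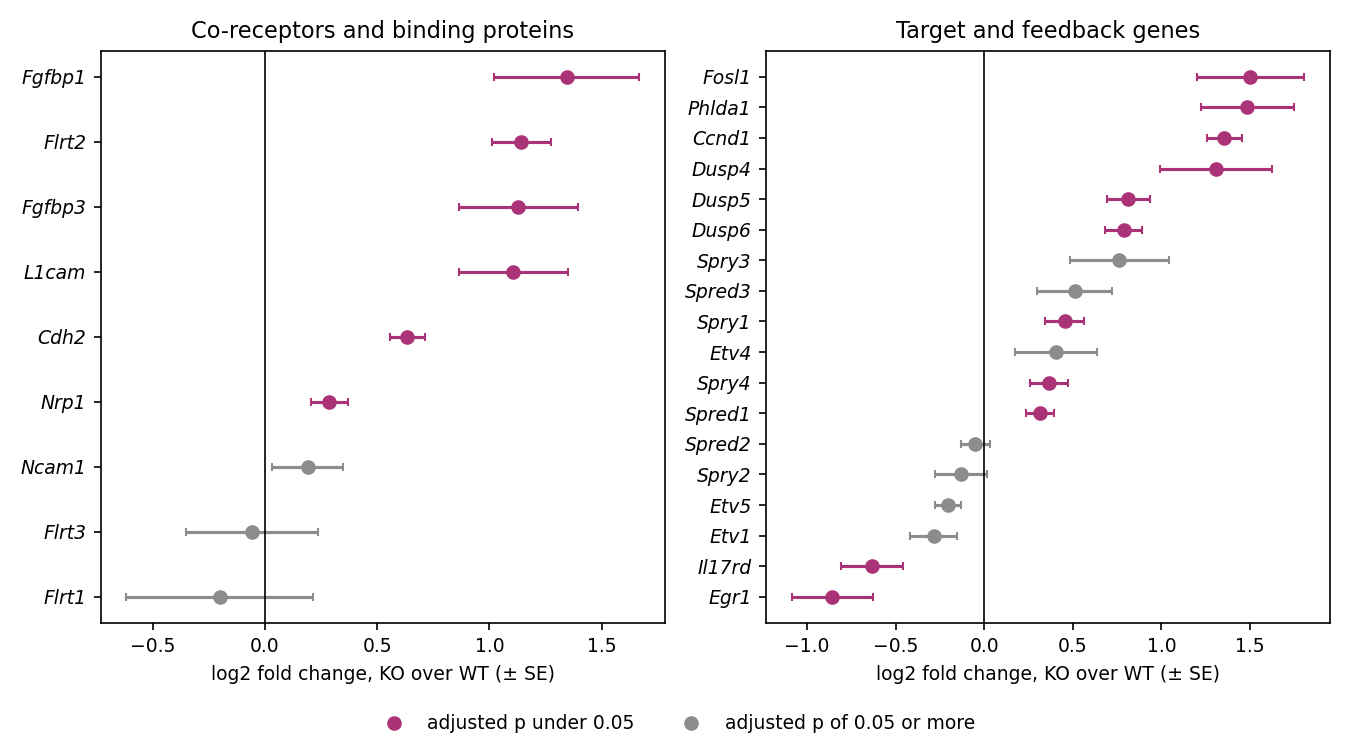
Log2 fold change of knockout (KO) over WT with its standard error for the tested co-receptor and binding protein genes (left) and target and feedback genes (right), purple where the adjusted p was under 0.05 in edgeR's quasi-likelihood test. Of 9 co-receptor genes 6 were purple, all to the right of 0, and of 18 target genes 9 were purple to the right (Ccnd1 at 1.36) and 2 to the left (Egr1 at -0.86).

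Markers of other cell types were read beside these results. Of all genes tested, 16.4% rose and 16.6% fell, and without knockout replicate 3 these shares were 23.9% and 24.2%. Of 11 epithelial markers measured, 9 were tested, 1 rose (Krt19, log2 fold change 1.14, edgeR quasi-likelihood test, adjusted p = 0.0274) and 1 fell (Cldn3, -2.16, adjusted p = 0.00614), and their summed CPM was 119 to 125 in WT libraries and 171, 130 and 45.9 in the knockout libraries. Of the 9, 6 had a log2 fold change below 0, with a median of -0.47. Without knockout replicate 3, 3 of 10 tested rose (Krt19, Cldn4 and Dsp) and 3 fell (Cldn3, Krt8 and Krt18). Dsp and Krt19 held 83.8 and 43.2 CPM of the sum in knockout replicate 1. The keratin gene Krt8 was at 28.4 to 30.3 CPM in WT libraries and at 18.1, 12.4 and 0.714 in the knockout libraries. Its log2 fold change was -1.50 (edgeR quasi-likelihood test, adjusted p = 0.189). Krt18 (-1.30, adjusted p = 0.0646) and Epcam (-1.09, adjusted p = 0.0671) also lay below WT in every knockout library, as did 28.2% of all genes tested. Krt8, Krt18 and Epcam were named with their values known. Of 6 osteoblast markers, Bglap rose by 2.45 (adjusted p = 0.00589) and Sost, with 0 counts in knockout replicate 3, fell by 4.37 on the log2 scale (adjusted p = 0.00946), and the sum was 64.7 to 70.8 CPM in WT libraries and 64.6, 63.7 and 40.3 in the knockout libraries, with 2 that rose and 2 that fell without knockout replicate 3. Of 6 macrophage markers 0 passed (lowest adjusted p = 0.142, and 0 at an unadjusted p under 0.05 or in DESeq2), but their sum was 20.6 to 35.0 CPM in WT libraries, 28.5 and 23.0 in knockout replicates 1 and 2 and 87.6 in knockout replicate 3. Of 6 endothelial markers 2 were tested and 0 passed (lowest adjusted p = 0.544, 0 at an unadjusted p under 0.05 and 2 higher in DESeq2, which has its own filter), with the defining gene Pecam1 at 0 to 0.525 CPM and a sum of 48.5 to 59.1 CPM in WT libraries and 67.3, 54.3 and 33.6 in the knockout libraries. Of 5 pluripotency markers read only Nanog was tested (log2 fold change -1.23, adjusted p = 0.125), and their sum was 0.998 to 2.33 CPM in WT libraries and 0.907, 0.855 and 0.429 in the knockout libraries. The part of these markers in the values of the FGF genes was not tested.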

How the data were processed

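RNA from 3 WT and 3 Rnf20 knockout cultures on day 3 of reprogramming was sequenced by the authors as poly(A)-selected, stranded paired-end libraries and aligned to GRCm38/mm10 with HISAT2 (2.1.0). The authors deposited raw read counts per gene with gene lengths, and FPKM values from Cufflinks (2.1.1) for 12633 genes. The counting program and its use of strand are not given in the sources used here. The authors' own log2 fold change and adjusted p-value columns (KO over WT, deposited with the FPKM) were not used. Of the 16982 genes, 425 are predicted loci without a name.

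From the counts, edgeR 4.0.16 (R 4.3.3) was used with TMM factors, filterByExpr at its defaults and the quasi-likelihood test without covariates, with Benjamini-Hochberg adjustment over the 13386 genes tested. A gene rose or fell at an adjusted p under 0.05. Standard errors are the log2 fold change divided by the root of F. Levels per length are CPM over the deposited gene length, and log2 CPM has a pseudocount of 2 counts. Intervals and the floor of 3 counts cover no PCR duplicates. Positions and overlaps are from GENCODE M21 of GRCm38.

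Alternatives were RLE or no size factors, DESeq2 1.42.0, edgeR's exact test, no filter, the replicate number as a block, a term for Y-linked transcripts, limma 3.58.1 on log2(FPKM + 1), the deposited FPKM, no FPKM limit, a pseudocount of 0.5 counts, and each library left out in turn. Named genes were the members, the strongest passing and the most abundant genes of each list, and the 3 genes nearest to Fgf18 and Fgfr3. The members and lists were chosen with earlier results of these data known. The values of 1 gene counted in a list are not reported here.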

Additional observations from a re-analysis of the deposited data

How the results depend on the processing

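With a term for Y-linked transcripts, 29 genes fell and 80 rose, 0 lower and 1 higher by the study's thresholds, 0 members passed, and of the pathway genes 3 rose and 0 fell. Fgfrl1 (-0.0463), Fgf2 (-0.1204) and Fgf10 (-0.0403) then changed sign in log2 fold change. Knockout replicate 2 lay at -0.042, -0.109 and -0.016 from the WT mean in log2 CPM for these genes. With 1 library left out, 2 members changed sign. Fgfrl1 lay between -0.0070 (without knockout replicate 3) and 0.2236, and Fgf5 between -0.364 (without knockout replicate 2) and 0.6531. DESeq2 called 568 lower and 409 higher by the study's thresholds and edgeR's exact test 566 and 407, against 279 and 201, and 2 members rose in either, Fgf18 and Fgf7. Deviations of same-numbered WT and knockout libraries correlated at r = -0.066, 0.037 and 0.011, and those of differently numbered ones at -0.069 to 0.072. These values gave no sign of a pairing by number, which they cannot exclude. With the replicate block 0 genes were called lower and 0 higher by the study's thresholds, 1385 rose, and 5 pathway genes fell. The Fgf2 share of ligands differed by -11.67 percentage points in the deposited FPKM, against -8.74. With 1 library left out, genes called by the study's thresholds numbered 1 to 490 lower and 0 to 295 higher, 702 to 3280 genes fell and 694 to 3230 rose at an adjusted p under 0.05, members 1 to 2 higher and 0 to 2 lower, and pathway genes 11 to 38 higher and 0 to 15 lower. The cause of these shifts was not tested. RLE factors, library size alone and no filter kept the counts of members called. At this depth Fgfr4 could not be read.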
